A study of Mus musculus and Rattus norvegicus with 53 samples.

Results

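The SMAD proteins and the feedback regulators of transforming growth factor β (TGFβ) were followed as 10 genes, Smad2, Smad3, Smad4, Smad6, Smad7, Ski, Skil, Tgif1, Smurf1 and Smurf2, out of the 24016 genes counted in sorted mouse Schwann cells (SCs). They were chosen by symbol, with no measured value in the rule but with earlier results of these data known. TGFβ binds a pair of receptor kinases, which phosphorylate SMAD2 and SMAD3. These join SMAD4, enter the nucleus and switch target genes on or off. The inhibitory SMADs SMAD6 and SMAD7 block the receptors, SKI and SKIL (also called SnoN) are co-repressors that bind SMADs, TGIF1 is a homeodomain co-repressor, and SMURF1 and SMURF2 are ubiquitin ligases that mark SMADs and receptors for degradation. Smad7 and Skil are themselves well known targets of TGFβ, which makes the pathway a feedback loop.

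All mice were tdTom SC reporters, in which a Cre active in the neural crest lineage removes a stop cassette before tdTomato at Rosa26, and no other allele was introduced. Male and female mice aged 6 to 8 weeks had 1 sciatic nerve cut, and tdTomato+ cells were sorted from the contralateral uncut nerve (intact, iSC), from the nerve beyond the cut (distal, dSC) and from the new tissue that joins the stumps (bridge, bSC). The pooled experiment holds 4 libraries a region at day 6, each from the nerves of 3 mice. The time course holds 35 single-nerve libraries, with 5 of iSC, 3 of dSC on each of 6 days (1, 2 and every other day from 4 to 10), and 3 of bSC on each of the last 4 of those days. Since Cre marks a lineage, the sort follows that lineage and not the state of the cell. Bulk libraries cannot tell fewer cells of a type from less RNA per cell.

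The upstream sequence of 2 members is printed because Tgif1 read higher and Ski lower in every pooled bSC library than in every pooled iSC library. RefSeq (GRCm38.p6) start sites were found for 6 of the 10 genes, namely Smad3, Smad6, Ski, Tgif1, Smurf1 and Smurf2. Each run below holds the 250 bases before the start, read 5′ to 3′ on the minus strand, for Tgif1 (the farthest upstream of 5 starts) at chr17:70853533-70853782 and for Ski at chr4:155222536-155222785. Capitals mark the SMAD-binding letters CAGAC and the GC-rich SMAD letters GGCGC, searched on both strands with overlapping matches counted separately.
Tgif1: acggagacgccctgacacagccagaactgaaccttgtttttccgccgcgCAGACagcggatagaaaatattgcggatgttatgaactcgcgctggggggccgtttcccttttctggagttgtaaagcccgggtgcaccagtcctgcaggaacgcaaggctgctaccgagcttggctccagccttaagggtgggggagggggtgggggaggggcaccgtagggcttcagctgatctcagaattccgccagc
Ski: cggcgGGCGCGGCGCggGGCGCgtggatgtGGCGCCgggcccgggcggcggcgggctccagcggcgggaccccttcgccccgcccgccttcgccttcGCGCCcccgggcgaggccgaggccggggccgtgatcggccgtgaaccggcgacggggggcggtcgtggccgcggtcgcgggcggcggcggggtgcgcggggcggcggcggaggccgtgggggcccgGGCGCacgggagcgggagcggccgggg
The Tgif1 window held 1 match to CAGAC and none to GGCGC, and the Ski window held 7 matches to GGCGC and none to CAGAC, with G and C making up 59.6% and 87.6% of the bases. Of 32851 RefSeq windows of this length, 42.2% held CAGAC and 32% held GGCGC at least once. The windows not printed held them too, with 6 GGCGC and 1 CAGAC in Smurf2 and 4 and 2 in Smurf1. Smad6 held 1 GGCGC and no CAGAC, and Smad3 held neither. Among the other Tgif1 starts, start 2 held 2 CAGAC, start 4 held 1 of each, and starts 3 and 5 held neither. The AP-1 letters TGACTCA (4.46% of windows) and the SMAD palindrome GTCTAGAC (0.167%) were in none of the members' windows. With the 50 bases after the start added, a choice made after seeing the data, Smad6 held the palindrome across its start, beginning 4 bases before it, and 0.213% of all windows did. It is shown in capitals within the 30 bases around the start, chr9:64022045-64022074 on the minus strand.
Smad6: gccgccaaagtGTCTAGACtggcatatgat

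Depth was 11435463 to 22617054 counts on genes in the pooled libraries and 9240883 to 22426128 in the single-nerve libraries. A pair of libraries stood apart. The day 4 dSC and bSC libraries labelled with animal 19 had a Pearson correlation of 0.995 on log2 CPM (counts scaled to the library total) and a chi-square of 3.96 per gene, against a median of 321 over the 1081 pairs of libraries and 47.9 for the next closest pair. They were kept as labelled, and results are also given without both. The chi-square is set against counting noise alone, so it cannot tell whether they are separate samples. In 4 single-nerve libraries (iSC replicates 0 and 1, dSC day 1 replicate 1 and dSC day 2 replicate 0) only 10042 to 11138 genes were detected. These hold every value of 0 among members other than Smad6 in the time course, including 3 for Smurf1. Summed Schwann cell markers went from 27643-69365 CPM in pooled iSCs to 1863-6686 in dSCs and 1945-5619 in bSCs, a list that includes the myelin genes. Macrophage markers summed to 214-5576 CPM in pooled iSCs, 10052-16911 in dSCs and 2519-7805 in bSCs. Fibroblast markers were high in every pooled library (11012-56758 CPM). Lymphocyte markers were at or near 0, with 2 of 5 at 0 in all 12 pooled libraries.

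**Figure D1:**
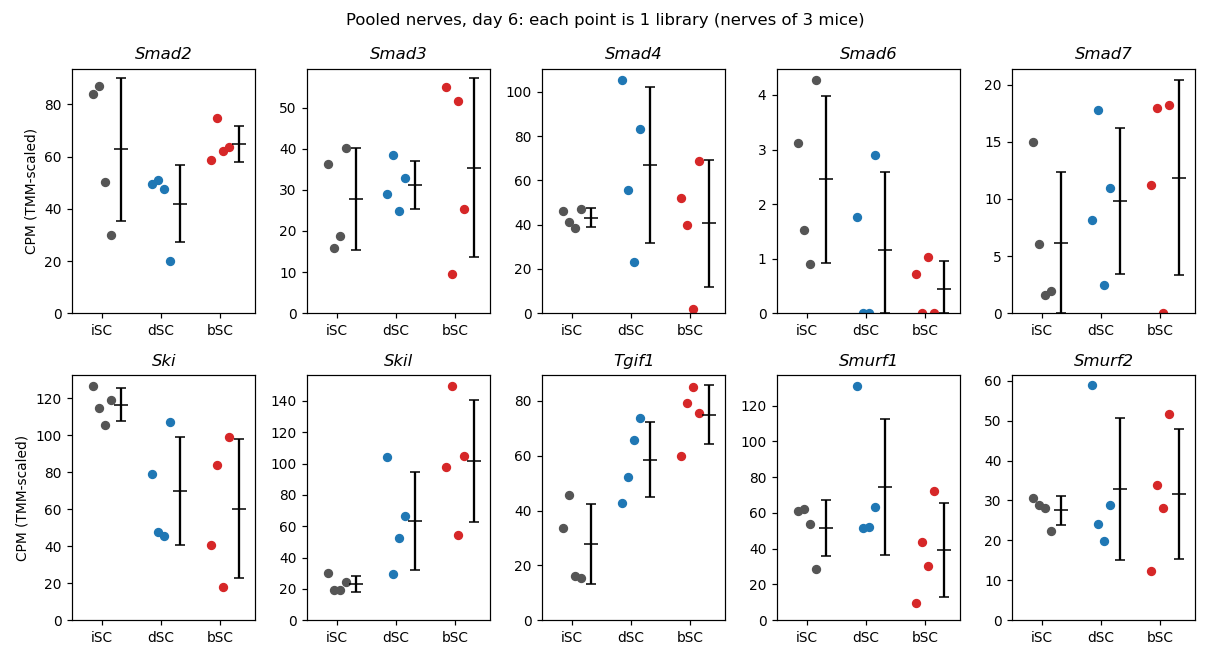
CPM (scaled by TMM, edgeR's trimmed mean of M values) of the 10 genes in the pooled libraries at day 6. Each point is 1 library, and the bars give the mean and SD (n = 4), stopped at 0 where the SD exceeds the mean. Skil and Tgif1 in the 4 bSC libraries lie above every iSC library, and Ski lies below.

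Set by exon length, the members spanned a wide range in uncut nerves. Levels here are RPKM, CPM divided by the length in kilobases of all exons of the gene joined. In pooled iSCs the order began with Ski (20.9 ± 1.59, SD, n = 4), Smad2 (17.7 ± 7.72) and Smad4 (11.7 ± 1.11), and ended with Skil (2.38 ± 0.541), Smad7 (1.36 ± 1.38) and Smad6 (0.782 ± 0.487). Ski and Smad2 overlapped between libraries, as did the next pair, Tgif1 (8.21 ± 4.32) and Smurf1 (8.13 ± 2.47). Smad3 (5.01 ± 2.23) and Smurf2 (4.47 ± 0.580) followed and overlapped too. Skil, from 1.96 to 3.10 RPKM, lay below Smurf2, from 3.63 to 4.97, in every library. In pooled bSCs the order was led by Tgif1 (22.2 ± 3.19) and Smad2 (18.3 ± 1.97), while Ski (10.8 ± 6.75) and Skil (10.5 ± 4.02) overlapped. In pooled dSCs Smad4 (18.05 ± 9.55) and Tgif1 (17.4 ± 4.09) came first and overlapped, with Skil (6.52 ± 3.25) in sixth place. Smad6 was last in all 3 regions.

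The member with the smallest adjusted p was Skil, the SMAD co-repressor at chr3:30993980-31021499 (NCBIM37, plus strand). Skil read 18.99, 19.10, 24.09 and 30.07 CPM in the 4 pooled iSC libraries. In bSCs it read 54.59, 97.70, 104.9 and 149.7 CPM. The groups did not overlap, and the lowest bSC library was above the highest iSC library. The level in bSCs was 4.41-fold that in iSCs (log2 fold change 2.14, SE 0.41, edgeR quasi-likelihood test, adjusted p = 0.00389). With the pools of the same animals as a block the difference was 2.23 (SE 0.48, adjusted p = 0.0281). Leaving out each library in turn gave 1.89 to 2.34, with adjusted p from 0.00316 to 0.0176.

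Tgif1, the homeodomain co-repressor at chr17:71193545-71202886 (NCBIM37, minus strand), was the other member that rose in bSCs. It read 15.4, 16.2, 33.6 and 45.5 CPM in pooled iSCs, where the libraries split into a lower and a higher pair. The bSC libraries read 59.80, 75.65, 79.05 and 84.98 CPM, all above the iSC libraries. The fold was 2.70 (log2 1.43, SE 0.38, edgeR adjusted p = 0.0216). The call was lost with the pools as a block (log2 1.21, SE 0.45, adjusted p = 0.148) and without iSC replicate 4 (1.22, adjusted p = 0.0647).

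In all, 2 of the 10 members were called in pooled bSCs against iSCs, both higher, where 14.7% of the 13751 genes tested were called in either direction and 7.24% were called higher. At an unadjusted p under 0.05 there were also 2 members, against 28.6% of genes. The libraries of the regions did not overlap for 3 members (Skil and Tgif1 higher, Ski lower), as for 25% of genes. Ski, the paralog of Skil at chr4:154528184-154596701 (NCBIM37, minus strand), read 106 to 127 CPM in iSCs and 17.8, 40.5, 83.8 and 98.8 in bSCs. Every bSC library was below every iSC library, but the difference did not pass the test (log2 -0.95, SE 0.45, adjusted p = 0.185). The other 7 members had log2 fold changes from -2.47 (Smad6, SE 1.98, adjusted p = 0.470) to 0.95 (Smad7, SE 1.30). Among the receptor-regulated SMADs and SMAD4, Smad2 had a log2 fold change of 0.04 (95% interval -0.78 to 0.87), Smad3 of 0.35 (-0.79 to 1.49) and Smad4 of -0.09 (-1.63 to 1.44). In the ligases the values were -0.40 (Smurf1, -1.51 to 0.72) and 0.20 (Smurf2, -0.85 to 1.24). Beside these differences, 8 of 10 Schwann cell markers were called lower and 1 higher, 3 of 8 fibroblast markers and 1 of 7 mural cell markers were called lower, and none of the 10 macrophage markers was called, although all 10 had positive fold changes. The part of other cell types in the levels of Skil and Tgif1 was not tested.

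In pooled dSCs against iSCs, 0 of the 10 members were called by edgeR, against 5.32% of genes. At an unadjusted p under 0.05 there were 2, Skil and Tgif1, against 16.5% of genes, and DESeq2 called 1, which was Skil. Skil read 29.4, 52.7, 66.5 and 104 CPM in dSCs, and the lowest of these was just under the highest iSC library. Its log2 fold change was 1.46 (SE 0.40, adjusted p = 0.0544 by edgeR and 0.0113 by DESeq2), and without dSC replicate 2, the lowest library, it was 1.69 (adjusted p = 0.0313). Tgif1 read 42.8, 52.1, 65.9 and 73.6 CPM (log2 1.08, SE 0.37, adjusted p = 0.132), with 1 dSC library below the highest iSC library. Ski read 45.6, 47.8, 78.8 and 107 CPM (log2 -0.74, SE 0.45, adjusted p = 0.489). The other 7 members ranged from -1.07 (Smad6, SE 1.89) to 0.68 (Smad7, SE 1.29) on the log2 scale, and the smallest adjusted p among them was 0.545 (Smad2, -0.58, SE 0.38). Both comparisons use the same 4 iSC libraries, so they are not independent of each other. Beside these values, 3 of 10 macrophage markers were called higher in dSCs, and their part in Skil and Tgif1 was not tested.

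Pooled bSCs and dSCs were also compared directly, to ask whether the wound site sets the bridge apart. None of the 10 members was called by edgeR or DESeq2, and 5.43% of genes were called. None had an unadjusted p under 0.05, as 21.5% of genes did. Skil was 0.69 higher in bSCs on the log2 scale (95% interval -0.17 to 1.54, adjusted p = 0.351), and Tgif1 0.35 higher (-0.44 to 1.15, adjusted p = 0.653). Ski had a difference of -0.21 (-1.17 to 0.75). The interval for Skil leaves room for a difference larger than a log2 of 1. Smad2 read 58.5 to 74.7 CPM in bSCs and 19.9 to 51.2 in dSCs with no overlap, as for 15.4% of genes (log2 0.62, SE 0.38, adjusted p = 0.385). Smurf1 had the largest negative value among members other than Smad6, -0.93 (SE 0.52, adjusted p = 0.336), with 131 CPM in dSC replicate 1 and 51.8 to 63.0 in the other dSC libraries. The remaining members ranged from -1.41 (Smad6, SE 1.91) to 0.27 (Smad7, SE 1.29), with Smad4 at -0.72 (SE 0.72, adjusted p = 0.632).

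**Figure D2:**
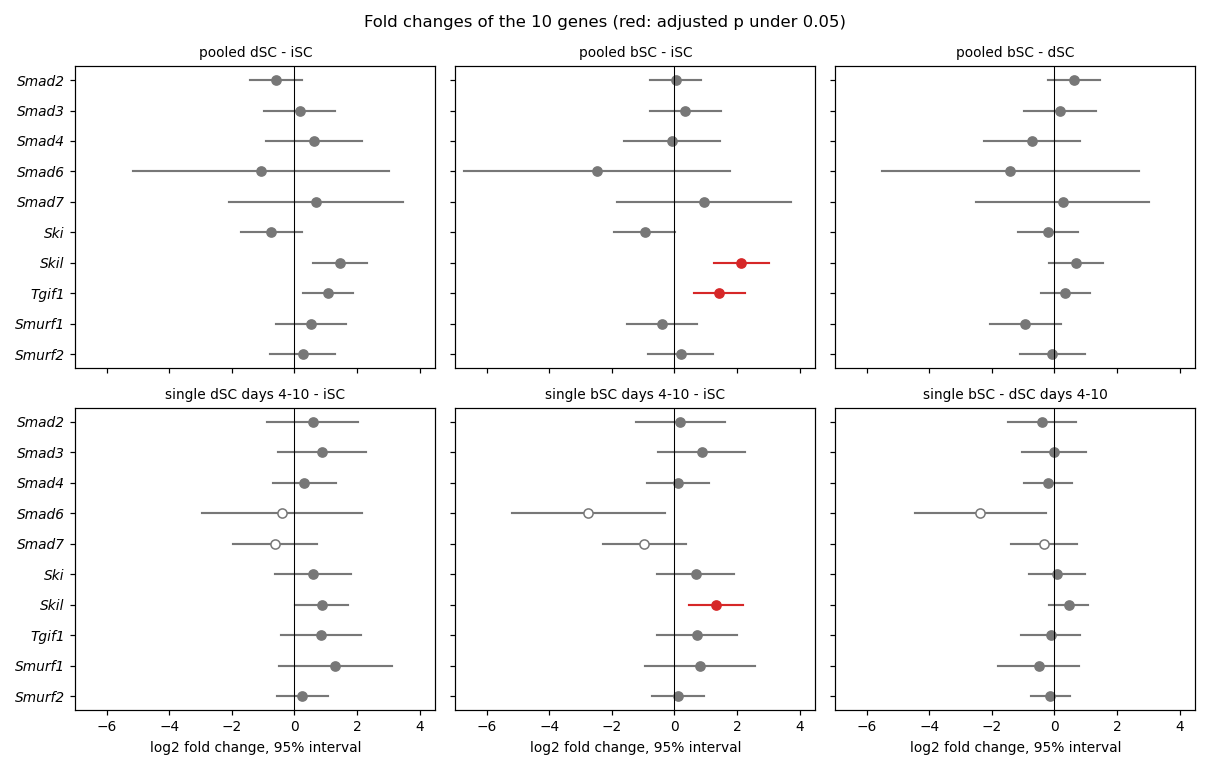
Log2 fold changes of the 10 genes in the 3 pooled comparisons at day 6 and the 3 single-nerve comparisons averaged over days 4 to 10, with 95% intervals from edgeR. Red marks an adjusted p under 0.05 (Skil and Tgif1 in pooled bSC - iSC, Skil in single bSC - iSC), and open symbols mark genes tested only with edgeR's filterByExpr.

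Several members spread widely between pooled libraries of 1 region. Smad4 read 39.7, 51.9 and 69.0 CPM in 3 bSC libraries and 1.72 in the fourth, replicate 3, while the iSC libraries read 38.5 to 47.2. Smad3, the SMAD that binds DNA with SMAD4, read 9.57, 25.3, 51.7 and 55.0 CPM in bSCs and 15.8 to 40.3 in iSCs. Its bSC libraries lay on both sides of the iSC range. Smad7 read 1.59 to 14.95 CPM in iSCs and 11.24, 17.97 and 18.17 in 3 bSC libraries, with 0 in replicate 3. Smurf1 spread from 9.855 to 72.4 CPM in bSCs and Smurf2 from 12.3 to 51.8, and both ranges covered that of iSCs (28.8 to 62.4 and 22.4 to 30.6).

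The single nerves ask when after the cut these genes change and whether each region follows its own course. Of the members, 8 reached 100 counts in 85% or more of the single-nerve libraries. Smad7 had 100 counts in 21 libraries and Smad6 in 3. Both were tested with edgeR's filterByExpr, which keeps 15519 genes in place of 7171. All contrasts against iSC share the same 5 iSC libraries.

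Skil again read higher in libraries from cut nerves than in most uncut ones. It read 8.61, 16.9, 32.6 and 35.6 CPM in 4 iSC libraries and 134 in the fifth, replicate 5. The 30 libraries from cut nerves ran from 40.7 to 171 CPM, with a median of 87.2. All 30 were above 4 of the 5 iSC libraries, and 3 were above the fifth. For 0.516% of the 7171 genes tested were all 30 libraries above all but 1 iSC library, a count made after seeing the values. No other member showed this, with 20 of 30 libraries for Smurf1 and 19 for Tgif1 as the next. Skil was already at 76.6, 76.7 and 86.2 CPM in dSCs at day 1, at 45.2, 76.1 and 87.6 at day 2, and at 86.8, 93.0 and 93.1 at day 10. In bSCs the libraries read 91.6, 99.3 and 171 at day 4, and 56.4, 146 and 149 at day 10. Day means (n = 3) ran from 69.6 to 91.0 CPM in dSCs and from 107 to 121 in bSCs.

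Averaged over days 4 to 10, Skil rose in bSCs against iSCs (log2 1.33, SE 0.43, adjusted p = 0.0433 by edgeR and 0.00913 by DESeq2), the only call among the 8 members, where 10.4% of genes were called and 3.54% were called higher. It was also the only 1 of these 8 with an unadjusted p under 0.05, against 24.3% of genes. This call rests on few libraries. It was kept without both day 4 libraries of animal 19 (1.38, adjusted p = 0.0475) and grew without iSC replicate 5 (2.32, adjusted p = 0.000343). It was lost without the 4 libraries with the fewest genes (0.89, adjusted p = 0.222), with only the compared groups in the fit (1.33, adjusted p = 0.155), and on leaving out 11 of 17 libraries singly (adjusted p from 0.0595 to 0.125), 4 of them iSC replicates (0, 1, 3 and 4). In dSCs over the same days none of the 8 members was called by edgeR or DESeq2, and 9.58% of genes were called. At an unadjusted p under 0.05 there was 1, against 23.9% of genes. That member was Skil (0.87, SE 0.42, adjusted p = 0.195), which was called without iSC replicate 5 (1.86, adjusted p = 0.00293) and had 0.43 (adjusted p = 0.686) without the 4 libraries with the fewest genes. The endothelial markers, at 1551-3909 CPM in single iSCs, were at 231-2618 after the cut from day 4, and macrophage markers went from 279-1173 to 902-14112. All 8 macrophage markers tested were called higher in both regions. The part of these cells in the Skil difference was not tested.

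**Figure D3:**
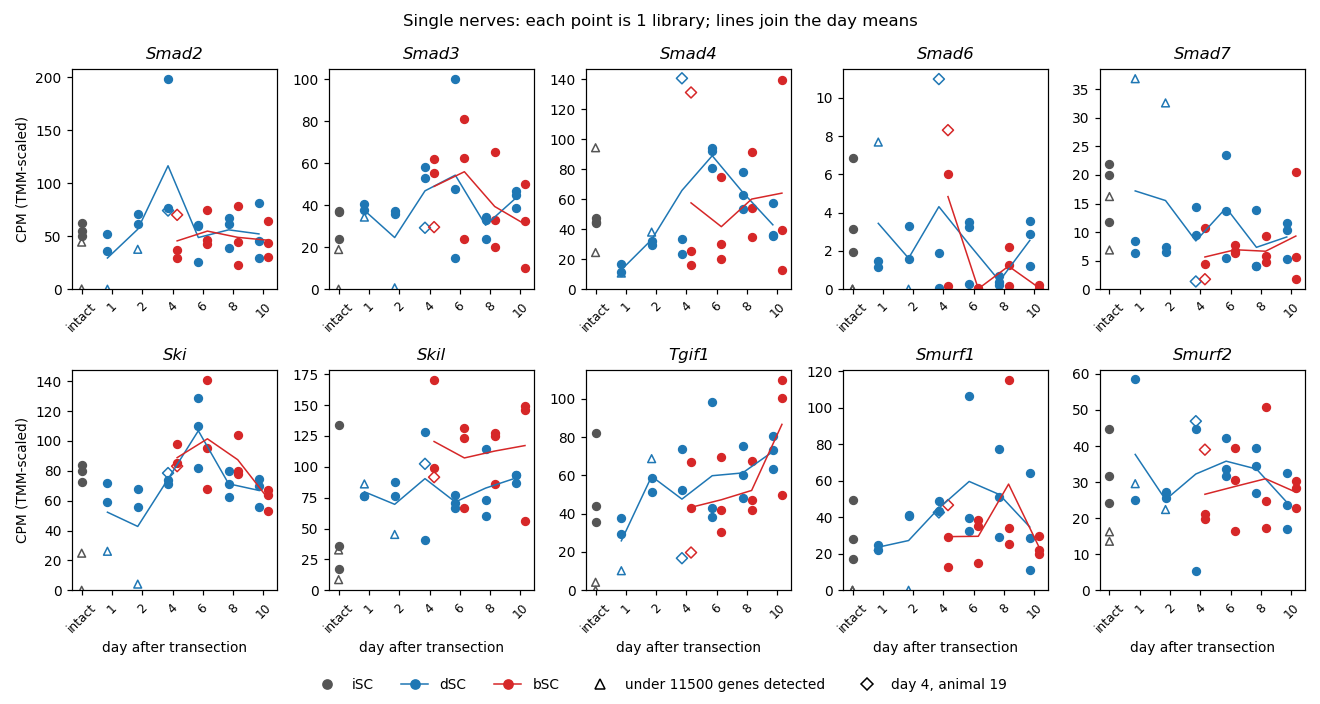
TMM-scaled CPM of the 10 genes in the 35 single-nerve libraries by day after the cut. Each point is 1 library and lines join the means of each day. Triangles are the 4 libraries with 10042 to 11138 genes and diamonds the day 4 pair of animal 19. Skil lies above 4 of the 5 intact libraries at every day.

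Tgif1, called in the pooled bSCs, did not pass the test in single nerves. Its 5 iSC libraries spread from 0 to 82.0 CPM, with 0 and 4.17 in the libraries with few genes. Libraries from bSCs of days 4 to 10 had a lowest of 19.7, a median of 48.4 and a highest of 110 CPM. Those of dSCs had 16.7, 61.8 and 98.3. Both ranges overlapped that of iSCs, and the lowest value of each belonged to animal 19. The log2 fold changes were 0.73 (SE 0.62, adjusted p = 0.521) for bSCs and 0.84 (SE 0.63, adjusted p = 0.447) for dSCs. Without the 4 libraries with the fewest genes they were 0.073 and 0.18, and without iSC replicate 3 they were 1.38 and 1.49, again short of the threshold.

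For Smad2, Smad3, Smad4, Ski, Smurf1 and Smurf2 the single-nerve fold changes against iSCs were all positive, from 0.11 (Smad4, bSCs) to 1.31 (Smurf1, dSCs, SE 0.89, adjusted p = 0.392), and none passed the test. The median over the 8 members was 0.70 in bSCs and 0.71 in dSCs, against -0.09 and -0.07 over all genes. Without the 4 libraries with the fewest genes these medians were 0.0998 in bSCs and 0.31 in dSCs, against 0.028 and 0.026 over all genes. For the 6 named members, iSC replicates 0 and 1 held all the iSC values at 0, and the sign changed without the 4 libraries with the fewest genes for Smad2 in bSCs (-0.18) and for Smurf2 in bSCs (-0.22) and dSCs (-0.084), and without animal 19 for Smad4 in bSCs (-0.26). Smad4 read 10.7, 11.2 and 16.8 CPM in dSCs at day 1 and 24.4 to 94.3 in iSCs. Both the 10.7 and the 24.4 came from libraries with few genes. The share of all genes whose libraries part in this way on day 1 was not counted. Smad4 was the only member with an unadjusted p under 0.05 on that day, against 6.28% of genes, and it did not pass the test (log2 -1.99, SE 0.72, adjusted p = 0.461). At day 6 Smad4 in dSCs read 81.1, 92.0 and 93.8 CPM, with 1 iSC library above these. Single libraries stood high in other members on days after the cut, with Smad2 at 198 CPM in dSC day 4 replicate 2, Smad3 at 100.1 in dSC day 6 replicate 1, and Smurf1 at 106.6 in the same dSC library and 115 in bSC day 8 replicate 2. The medians over the 30 libraries from cut nerves were 49.4 (Smad2), 37.5 (Smad3) and 33.2 CPM (Smurf1).

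Of the inhibitory SMADs, Smad6 had the least certain values. It also had the lowest level of the members in uncut nerves and averaged over days 4 to 10. Smad7 was low too, but in single iSCs it read 3.40 RPKM, above Smurf1 at 2.98. Smad7, which blocks the type I receptor, read 6.86 to 21.9 CPM in single iSCs and 1.35 to 36.8 in the cut nerves. The Smad7 median was 16.2 CPM in iSCs and 7.05 over the 30 libraries from cut nerves, and the ranges overlapped. Averaged over days 4 to 10 its fold changes were -0.97 in bSCs (SE 0.65, adjusted p = 0.404) and -0.63 in dSCs (SE 0.66, adjusted p = 0.670), whereas in the pooled libraries the values were 0.95 and 0.68. Smad6, better known as an inhibitor of the related BMP branch, was at 0 in 7 of 35 single-nerve libraries and in 4 of 12 pooled ones. Its bSC libraries read 0.163, 6.04 and 8.31 CPM on day 4, 0, 0 and 0.0617 on day 6, 0.146, 1.27 and 2.20 on day 8, and 0, 0 and 0.232 on day 10. The lowest libraries of days 4 and 8 (0.163 and 0.146, each 2 raw counts) lay below the highest of day 10 (0.232, 3 raw counts). The days therefore overlapped near the floor. The 3 day 4 libraries include 1 of animal 19 (8.31). On no single day did the difference from iSCs pass the test. The fold change averaged over these days in bSCs was -2.76 against iSCs (SE 1.20, adjusted p = 0.147) and -2.36 against dSCs (SE 1.03, adjusted p = 0.456), and neither passed. With filterByExpr 9.34% of genes were called in bSCs against iSCs, 5.32% in dSCs against iSCs and 0.103% in bSCs against dSCs.

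The regions of cut nerves did not differ by the test in any member. In bSCs against dSCs over days 4 to 10, none of the 8 members was called by edgeR or DESeq2, and 0.112% of genes were called. None of these 8 had an unadjusted p under 0.05, as 7% of genes did. Skil was 0.45 higher in bSCs (95% interval -0.17 to 1.08, adjusted p = 0.870), and with the 10 pairs of nerve regions from the same animal as a block the value was 0.21 (SE 0.22, adjusted p = 0.657). The main fit leaves this pairing out. With the block on 10 pairs, 447 genes and 0 of the 8 members were called. These pairs leave out animal 27, since the title and the animal label of its day 10 bSC library disagree. With it, as 11 pairs, the value was 0.37 (SE 0.21, adjusted p = 0.405), and Skil read 149 CPM in that bSC library against 86.8 in its dSC partner. Over the 10 pairs it was higher in bSCs in 7 of 10 animals, and in 7 of 9 without animal 19, with pair values from -0.71 to 1.27 on the log2 scale. Tgif1 was higher in bSCs in 4 of 10 animals, Ski in 6, Smad2 in 4, Smad3 in 5, Smad4 in 3, Smad6 in 4, Smad7 in 6 and Smurf1 in 4. The ligase Smurf2 was higher in bSCs in 2 of 10 animals (log2 -0.14 over all libraries, 95% interval -0.76 to 0.48). For a difference over the 11 groups of the time course, 0 members were called by edgeR or DESeq2, against 2.61% of genes, and none had an unadjusted p under 0.05, as 14.5% of genes did. No member, and none of the 7171 genes, was called for a bridge-to-distal difference that varied with the day (0 called by edgeR, 0%, and 0 members by DESeq2). Smad6, which is outside these genes, had an unadjusted p of 0.0426 in this edgeR test with filterByExpr. It was not called, and its counts lay near the floor.

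Over the 14 comparisons of single days edgeR called 0 of the 8 members. In order of day, the share of all genes called was 0.153%, 1.1%, 4.48%, 1.58%, 0.725% and 0.795% in dSCs against iSCs, and 3.99%, 3.49%, 0.641% and 2.44% in bSCs against iSCs. Between bSCs and dSCs of 1 day it was 0% or 0.0139%. Skil in bSCs had an unadjusted p under 0.05 on each of the 4 days, with log2 values of 1.23 or more and adjusted p from 0.145 to 0.395, where 16.5%, 20.9%, 9.68% and 14.4% of genes did. In dSCs its values by day ran from 0.61 to 0.997, with unadjusted p of 0.072 or more.

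The paralogous co-repressors Skil and Ski shifted relative to each other in the pooled libraries. The ratio of Skil to Ski per exon length was 0.0956 to 0.136 in the 4 pooled iSC libraries. It was 0.352 to 0.761 in dSCs and 0.609 to 1.76 in bSCs, and above 1 in 3 of 4 bSC libraries. These genes were set against each other after their values were seen, so the ratio restates the opposite differences given above and has no test. In single nerves the shift was less plain, and the Ski difference had the other sign. Against iSCs the log2 fold change of Ski was 0.68 in bSCs and 0.59 in dSCs, and neither passed the test. The ratio ran from 0.122 to 1.06 in the 4 iSC libraries where Ski was detected, from 0.297 to 1.03 in dSCs of days 4 to 10 and from 0.398 to 1.58 in bSCs, and the groups overlapped.

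**Figure D4:**
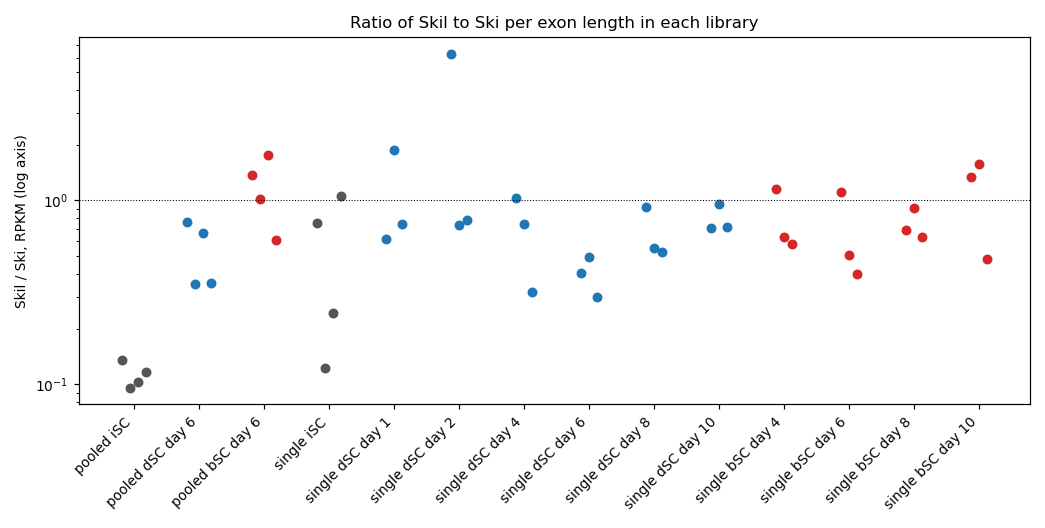
Ratio of Skil to Ski, each in RPKM, in every library (log axis), with 1 point per library and the dotted line at 1. Pooled iSC libraries lie between 0.0956 and 0.136, below every other library but 1 single iSC library at 0.122.

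Genes with the most similar course were sought over the 11 group means of log2 CPM in the time course, as a description, since the points share libraries and include groups with low gene numbers. The highest r was picked from the 7171 genes tested over only 11 points, so high values can come from that choice alone. For Skil they were Tnpo3, Cpsf3 and Nmt1 (r = 0.949 for each). For Tgif1 they were Gnl2 (r = 0.982), 1200014J11Rik (0.943) and Lxn (0.929). For the others the closest genes were Clvs1 for Smad2 (r = 0.968), Cxxc1 for Smad3 (0.959), Rxrb for Smad4 (0.950), Smarca4 for Ski (0.967), St3gal1 for Smurf1 (0.965) and Socs3 for Smurf2 (0.804). Among the members, Ski followed Smurf1 (r = 0.931) and Smad3 (r = 0.922) most closely, while Skil had r = 0.798 with Ski and 0.738 with Tgif1. Smurf2 had no member above r = 0.414.

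The rest of the pathway was read from lists that leave the 10 members out, and their counts stand against calls in 14.7% (pooled bSCs), 5.32% (pooled dSCs), 10.4% (single bSCs) and 9.58% (single dSCs) of all genes, each against iSCs. In pooled bSCs against iSCs the median log2 fold change was 1.48 over 9 ligand and latency genes, -0.06 over 10 receptors, 0.37 over 5 other SMADs and BMP receptors, -0.06 over 15 cofactors and 0.45 over 20 target genes, against -0.16 over all genes. Among 15 SMAD cofactors and turnover genes tested in the pooled libraries, 3 were called higher and 1 lower in bSCs against iSCs. These were Pmepa1, a feedback inhibitor that binds SMADs (log2 2.54, SE 0.32, adjusted p = 0.000337), Fkbp1a, the FKBP12 that holds the type I receptor inactive (1.42), Strap, which aids SMAD7 at the receptor (1.46), and the ligase Wwp1, which was lower (-1.496). Pmepa1 was also called in dSCs (1.76, adjusted p = 0.00538) and in single-nerve bSCs (1.501, adjusted p = 0.0276). None of the other SMADs and BMP receptors was called in pooled dSCs or bSCs against iSCs. Of the receptors, Tgfbr1, the type I receptor (1.20), and Eng, endoglin (1.74), rose and Tgfbr3, betaglycan (-2.56), fell in pooled bSCs, and of the ligands Tgfb2 rose (2.26, adjusted p = 0.00739). Tgfbr3 was also called lower in pooled dSCs (-1.88, edgeR adjusted p = 0.0142), the only receptor called there. SMAD target genes did not move one way. In pooled dSCs 4 of 20 were called higher (Tgfbi, Thbs1, Fn1 and Cdkn2b) and 2 lower (Cyr61 and Cdkn1a), and in pooled bSCs none was higher and 3 were lower (Cdkn1a, Junb and Id3), a share near that of all genes. In single-nerve bSCs 4 of 16 were higher (Fn1, Timp1, Col1a1 and Col1a2, the collagens being fibroblast markers too) and 2 lower (Id1 and Id3, also targets of BMP signalling). In single-nerve dSCs 2 of 16 were higher (Fn1 and Timp1) and 2 lower (Id1 and Id3). Of 8 receptors tested in single nerves, 1 was called lower in bSCs and 2 in dSCs, and 0 higher. Acvrl1, a type I receptor of endothelial cells, also fell (-1.16 in bSCs and -1.68 in dSCs). Of 7 endothelial markers 1, Cldn5, was called lower in each region, and the part of endothelial cells in Id1, Id3 and Acvrl1 was not tested. Between pooled bSCs and dSCs, where 5.43% of genes were called, 1 of 9 ligand and latency genes was higher in bSCs. Of 15 cofactors 2 were higher and 1 lower, and of 20 targets 1 was higher and 1 lower. No gene of the other pathway lists was called there. In single nerves no gene of these pathway lists was called between the regions.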

How the data were processed

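The deposited files hold raw counts per gene, which the authors made by aligning Smart-seq2 reads with TopHat2 2.0.11 to mm9 (NCBI Build 37) and counting with HTSeq; no value had been normalized. Lanes of a library were summed here. ERCC spike-ins and HTSeq's own categories were left out of library sizes. Unique reads on genes were 39.1% to 47.1% per library.

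Counts were tested with edgeR 4.0.16 (R 4.3.3; TMM, quasi-likelihood test, Benjamini-Hochberg over all genes tested, call at an adjusted p of 0.05), with 1 fit for the 12 pooled and 1 for the 35 single-nerve libraries. Genes were kept by filterByExpr (pooled) or with at least 100 counts in 85% of libraries (single nerves). DESeq2 1.42.0 was an alternative. The test was tried on simulated data. All 10 genes were named in each of the 6 comparisons, and by day only where called, with Smad4, Smad6 and Skil by day added after their values were seen. The genes and lists were chosen with earlier results of these data known. The labels tie regions to animals (3 pools shared with iSC, 4 between dSC and bSC, and 11 single-nerve pairs, of which 10 were used because the title and animal label of 1 day 10 bSC library disagree), and deviations of paired libraries correlated at a mean of -0.07 to 0.04 in pools and 0.16 in single nerves (0.099 without the pair of animal 19). Counts without molecular identifiers cover counting error only. Exon lengths and coordinates came from GENCODE on NCBIM37. All 5 intact single nerves in the labels were used, while the study's methods kept 4 after filtering, not named in the labels. The 6 cultured rat libraries were not analysed here.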

Additional observations from a re-analysis of the deposited data

Results flagged for a closer look

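In 3 of 40 sets of member values (10 genes in 4 groups of 4 or 5 libraries) 1 library lay far from the others by Dixon's ratio, and chance alone flags about 1 in 20. Smad2 read 19.9 CPM in pooled dSC replicate 5, against 47.6 to 51.2 in the other dSC libraries. Smurf1 read 131 CPM in pooled dSC replicate 1, against 51.8 to 63.0 in the rest. Skil read 134 CPM in single iSC replicate 5, against 8.61 to 35.6 in the other 4 iSC libraries, and the single-nerve differences of Skil without it are in the report.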

How the results depend on the processing

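Over the 6 comparisons, 395 of 414 member fold changes under other settings kept their direction and side of the threshold, 15 reversed, 3 lost a call and 1 gained one. The cause of these changes was not tested except where fewer libraries or genes entered. Among the pooled libraries, DESeq2 called 1 member and 1393 genes in dSCs against iSCs (main 732 genes), 3114 genes in bSCs against iSCs (main 2022) and 1939 in bSCs against dSCs (main 746). With the replicate block, pairing libraries of the same animals, 287, 968 and 236 genes and 0, 1 and 0 members were called in these comparisons. Tgif1 was the call lost under the block and no other member call changed. With only the compared groups in the fit, 394 genes were called in pooled bSCs against dSCs. Leaving out 1 library in turn gave 311 to 1014, 1298 to 2062 and 325 to 806 genes and 0 to 1, 1 to 2 and 0 members. Skil in dSCs ran from 1.10 to 1.69 and Tgif1 in bSCs from 1.21 to 1.77.

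In single-nerve bSCs against iSCs, 0 members and 337 genes were called with only the compared groups in the fit (main 745 genes), 0 members without the 4 libraries with the fewest genes, 1573 genes with no filter and 1449 with filterByExpr. In bSCs against dSCs the 8 genes called became 60 with DESeq2, 447 with the replicate block on 10 pairs, 60 with 11 pairs, 398 with the block and without animal 19, 65 without the 4 libraries with the fewest genes, 30 with no filter and 16 with filterByExpr, with 0 members in each. Leaving out 1 library gave 355 to 819 genes in dSCs against iSCs, 452 to 794 in bSCs against iSCs and 4 to 40 between regions, with 0 to 1, 0 to 1 and 0 members, and the Skil value was 0.61 to 1.86 for dSCs and 1.07 to 2.32 for bSCs. Leaving out animal 19 and the libraries with the fewest genes were chosen after seeing the data.

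Signs that changed were all of values that did not pass the test. A term for the number of lanes gave -0.12 for Smad4 in pooled dSCs against iSCs, -0.17 for Smad7 in bSCs against iSCs and -0.31 for Smad7 in bSCs against dSCs. In pooled bSCs against dSCs the replicate block gave -0.090 for Smad3, -0.52 for Smad7 and 0.0060 for Smurf2. Without the 4 libraries with the fewest genes, Smurf2 was at -0.084 in single dSCs and -0.22 in single bSCs against iSCs, and Smad2 at -0.18 in bSCs, and without animal 19 Smad4 was at -0.26 in bSCs. Smad3 in single bSCs against dSCs was at 0.087 with the replicate block on 11 pairs, 0.010 without animal 19, 0.035 with no filter and 0.060 with filterByExpr, Smad7 was at 0.041 with the block, and Ski on day 10 at 0.051 with filterByExpr. Leaving out 1 library, the ranges that crossed 0 in the pooled libraries were -0.0081 to 0.41 (Smad3) and -0.18 to 0.44 (Smurf2) in dSCs against iSCs, -0.21 to 0.23 (Smad2), -0.47 to 0.30 (Smad4) and -0.15 to 0.42 (Smurf2) in bSCs against iSCs, and -0.56 to 0.070 (Ski), -0.17 to 0.49 (Smad3), -0.055 to 0.72 (Smad7) and -0.41 to 0.38 (Smurf2) in bSCs against dSCs. In single nerves they were -0.13 to 0.36 (Smad2), -0.26 to 0.46 (Smad4) and -0.031 to 0.40 (Smurf2) in bSCs against iSCs, and -0.15 to 0.18 (Smad3), -0.55 to 0.098 (Smad4) and -0.21 to 0.027 (Tgif1) between regions. In single nerves, Smad6 and Smad7 were not refitted with 1 library left out. Rat libraries were not analysed here. Low counts limit Smad6 and Smad7, and 3 libraries a day limit the comparisons by day.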
